A study of Mus musculus with 6 samples.

Results

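The matrix metalloproteinases described here are 10 genes of 23337 listed in each count table: Mmp2, Mmp3, Mmp9, Mmp10, Mmp11, Mmp13, Mmp14, Mmp16, Mmp19 and Mmp23, chosen by symbol as members of the family transcribed in mammary stroma. They were measured by RNA sequencing in cultured stromal fibroblasts of the mouse mammary gland, in 3 Sharpin-cpdm and 3 wild-type libraries. Sharpin-cpdm cells came from mice homozygous for cpdm, a spontaneous loss-of-function allele of Sharpin that every cell of the animal carries, and the comparison cells from wt/wt mice. Both groups were of the strain C57BL/KaLawRij and 7 weeks old, each library pooled the glands of 3 mice, and cells were enriched by differential centrifugation and grown in serum to confluence at passage 0. The labels number the libraries 1 to 3 in each group without saying what a number marks.

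Matrix metalloproteinases are zinc-dependent endopeptidases that cut the proteins of the extracellular matrix, along with growth factors and other proteases. Most are secreted as inactive precursors and are held in check by tissue inhibitors, the TIMPs, while the membrane-type enzymes work at the cell surface. In the mammary gland they are made largely by stromal cells and take part in the growth and branching of ducts through the fat pad.

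Gene counts came to between 13570649 and 15656196 per library, which places even the rarest of the 10 genes above 0 in all 6, and 13442 genes passed the low-count filter, all 10 members included. Sharpin, the mutated gene, stood at 10.5, 9.13 and 9.50 CPM (counts per 1000000 counts assigned to genes) in Sharpin-cpdm libraries 1 to 3, against 24.5, 25.2 and 31.2 CPM across wild-type cultures 1 to 3. The genotypes did not overlap, and the log2 fold change was -1.48 ± 0.12 with the replicate number as a block (edgeR adjusted p = 0.00598) and -1.49 ± 0.14 without it (edgeR adjusted p = 0.272). Col1a1, a defining transcript of fibroblasts, stood at between 20050 and 23359 CPM in Sharpin-cpdm and between 20849 and 24696 CPM in wild type. Markers of other cells were present too. Those of endothelium summed to between 574 and 835 CPM in Sharpin-cpdm and between 756 and 1322 CPM in wild type, where Tek, Cldn5, Pecam1 and Flt1 were among 12 of 15 that were lower by the blocked test described next and 0 were higher. Macrophage markers summed to between 156 and 420 CPM in Sharpin-cpdm and between 86.4 and 499 CPM in wild type, and 0 of 13 tested passed (Cd74 at a log2 fold change of 0.87 ± 0.20 and Cd14 at -0.55 ± 0.15). Of the pericyte markers Abcc9, Notch3 and Mcam were lower (3 of 10), of the adipocyte markers Fabp4 and Lpl (2 of 3), of the mast cell and neutrophil markers Kit (1 of 4), and of the fibroblast markers Lum, Dpt, Fap and Dcn (4 of 13). The pericyte markers summed to 5266.3, 7564.4 and 4118.5 CPM across Sharpin-cpdm cultures 1 to 3. In wild-type cultures 1 to 3 that sum was 4789.8, 7072.1 and 3503.8 CPM, lower than in Sharpin-cpdm within each number. Of the epithelial markers, 0 of 10 passed (Krt5 at -0.85 ± 0.29 and Cldn7 at -0.39 ± 0.19). The same test called 2.11% of all tested genes lower and 0.394% higher. Lep and Retn of adipocytes, Csn2 and Wap of milk-producing epithelium, and Cxcr2 and Elane of neutrophils were at 0 counts in every library. In bulk cultures, fewer cells of a type and less RNA per cell cannot be told apart, and the part these cells have in the values below was not tested.

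Mmp3, Mmp2 and Mmp13 fell and Mmp9 rose in Sharpin-cpdm fibroblasts when libraries of the same number were set against each other, while Mmp14, the most evenly expressed member, had nearly the same level in both genotypes. Without the pairing, the quasi-likelihood test of edgeR (Benjamini-Hochberg adjustment over all tested genes) called 0 of the 10 members at an adjusted p of 0.05, as it called 0% of all genes, and 0 of the 10 had an unadjusted p under 0.05, against 2.28% of all genes. DESeq2 without the pairing also called 0 of the 10, against 0.0744% of all genes, and limma-voom 0 of the 10. With the replicate number as a block, edgeR's test called 4 of the 10, 3 lower and 1 higher, where it called 2.51% of all tested genes, 2.11% lower and 0.394% higher. The main fit was the one without the block, which called 0 of the 10 members, and the blocked fit was an alternative to it. The pairing behind the block was inferred from these same data. Rose and fell are nonetheless used here of genes that the blocked test called. Each gene so described had an adjusted p of 1.00 in the unblocked edgeR test. The CPM ranges of the genotypes were apart for 0 of the 10 members and for 5.94% of all tested genes (2.59% lower and 3.35% higher in Sharpin-cpdm). Within numbers, 6 of the 10 were lower in Sharpin-cpdm in all 3 comparisons (18.5% of all genes) and 2 of the 10 higher in all 3 (22.7%). The median log2 fold change of the 10 members with the block was -0.20, beside -0.0016 for all tested genes.

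**Figure D1:**
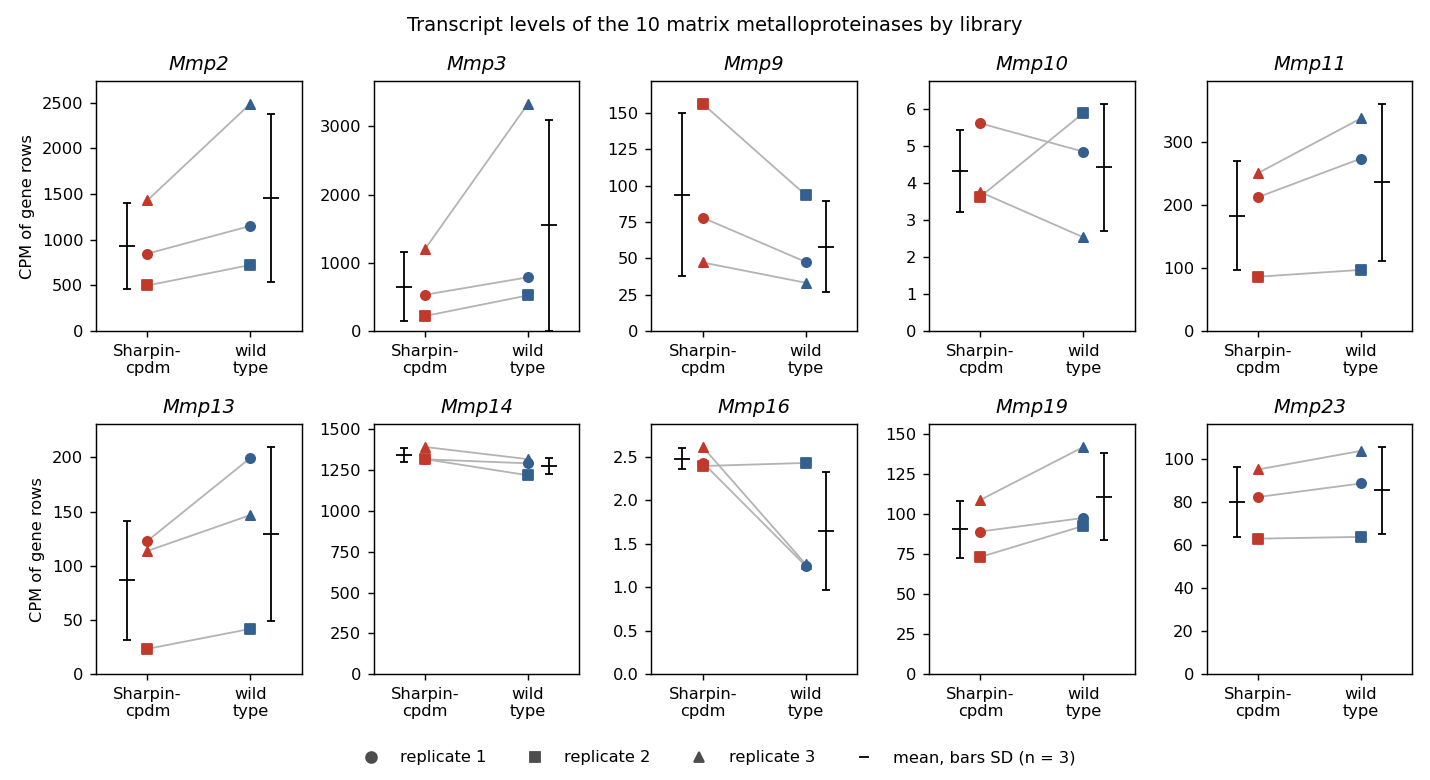
Transcript level of each matrix metalloproteinase gene in CPM of gene rows (linear axis from 0) in the 3 Sharpin-cpdm libraries (left, red) and the 3 wild-type libraries (right, blue); marker shapes give the replicate number, grey lines join equal numbers, and black bars are the mean ± SD (n = 3). Lines for Mmp2, Mmp3 and Mmp13 are higher at the wild-type end and those for Mmp9 higher at the Sharpin-cpdm end in all 3 numbers, whereas the levels of the genotypes overlap for every gene.

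The stromelysins MMP3 and MMP10 degrade proteoglycans, laminin and fibronectin and switch on other metalloproteinase precursors, and the collagenase MMP13 cuts fibrillar collagen. Their genes lie in one cluster on chromosome 9 (mm10). Mmp3 occupies 7445822 to 7455975, Mmp10 7502352 to 7510240 and Mmp13 7272514 to 7283331, all on the plus strand. As these 3 genes are neighbours of related function of which 2 fell, the RefSeq promoters (build GRCm38.p6, 250 bases before to 50 after the annotated start) are printed here, with that of Mmp14, an evenly expressed gene, for contrast. Capitals mark AP-1 motifs, the letters TGAGTCA or their reverse complement TGACTCA.
Mmp3, chr9:7445572-7445871, plus strand: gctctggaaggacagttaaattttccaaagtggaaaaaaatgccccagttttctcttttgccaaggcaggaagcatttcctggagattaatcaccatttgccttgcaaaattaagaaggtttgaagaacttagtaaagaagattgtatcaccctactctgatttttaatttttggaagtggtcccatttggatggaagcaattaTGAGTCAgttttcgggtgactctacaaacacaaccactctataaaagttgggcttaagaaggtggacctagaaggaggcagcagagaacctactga
Mmp13, chr9:7272264-7272563, plus strand: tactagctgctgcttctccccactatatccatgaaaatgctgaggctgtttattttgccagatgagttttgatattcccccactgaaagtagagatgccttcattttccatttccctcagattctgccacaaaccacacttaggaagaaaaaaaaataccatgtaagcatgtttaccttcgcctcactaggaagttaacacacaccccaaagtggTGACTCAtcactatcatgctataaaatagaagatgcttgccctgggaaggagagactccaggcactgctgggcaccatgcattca
Mmp10, chr9:7502092-7502391, plus strand: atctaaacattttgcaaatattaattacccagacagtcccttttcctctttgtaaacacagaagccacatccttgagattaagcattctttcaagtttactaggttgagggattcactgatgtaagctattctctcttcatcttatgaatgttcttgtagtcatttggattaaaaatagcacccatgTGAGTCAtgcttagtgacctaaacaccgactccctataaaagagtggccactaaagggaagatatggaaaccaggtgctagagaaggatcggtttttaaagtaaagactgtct
Mmp14, chr14:54431348-54431647, plus strand: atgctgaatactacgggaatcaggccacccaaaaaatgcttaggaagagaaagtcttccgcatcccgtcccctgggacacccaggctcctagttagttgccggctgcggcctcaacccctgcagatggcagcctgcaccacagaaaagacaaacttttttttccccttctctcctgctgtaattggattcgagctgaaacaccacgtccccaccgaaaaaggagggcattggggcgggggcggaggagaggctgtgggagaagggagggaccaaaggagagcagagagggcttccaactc

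The RefSeq table matched 6 of the 10 members, the others being Mmp2, Mmp9, Mmp16 and Mmp19. Each of the 3 promoters of the cluster held 1 AP-1 motif, which starts 46 bases before the annotated start in Mmp3 (position -46), at position -35 in Mmp13 and at position -63 in Mmp10. Each also held 1 TATAAA on the strand of the gene, at positions -7, -16 and -29 in the same order. An AP-1 motif on either strand occurred in 5.20% and TATAAA on the given strand in 8.32% of all 32851 promoters of this length. The windows of Mmp11, Mmp14 and Mmp23 held neither. They carried instead the Sp1 motif GGGCGG, with 4 matches in Mmp11, 2 in Mmp14 and 2 in 1 of the 2 windows of Mmp23, where 35.7% of all promoters have at least 1 on either strand. Mmp13 had 2 matches to the PEA3 motif AGGAAG, Mmp3 had 1 and Mmp14 had 1 (35.4% of all promoters), and the RUNX motif ACCACA occurred once in Mmp13, once in Mmp14 and, as TGTGGT, once in the other window of Mmp23 (16.8%). A loose NF-kappaB pattern (GGG, any 5 bases, CC) had no match in the 3 cluster promoters and 1 each in Mmp11, Mmp14 and 1 window of Mmp23, and 50.8% of all promoters hold it on either strand. Overlapping matches were counted separately, and a match is a run of letters and not a measured binding site.

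Mmp3 had the largest fold change of the 10. Its level was 534, 223 and 1204 CPM across Sharpin-cpdm cultures 1 to 3, against 791, 525 and 3333 CPM across wild-type cultures 1 to 3. Wild-type library 3 stood far above the other 5, and libraries 2 were the lowest of both genotypes. The groups overlapped, but within each number Sharpin-cpdm was lower, at 0.675, 0.424 and 0.361 of the wild-type level. With the block the log2 fold change was -1.10 ± 0.16 (SE over 3 pairs; blocked edgeR adjusted p = 0.0280), and without it -1.27 ± 0.85. The call ended without pair 2 (adjusted p 0.102 in edgeR's test) and without pair 3 (adjusted p 0.108).

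Mmp13 likewise fell, on a level that varied several-fold between numbers. It stood at 123, 23.6 and 114 CPM across Sharpin-cpdm cultures 1 to 3 and at 199.5, 42.0 and 147 CPM across wild-type cultures 1 to 3. Libraries 2 were the lowest of each genotype, and the ratios within numbers were 0.617, 0.561 and 0.775. The log2 fold change was -0.63 ± 0.08 (blocked edgeR adjusted p = 0.0203), and -0.60 ± 0.71 without the block. Without pair 2 its adjusted p with the block was 0.0566.

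Mmp10, the second stromelysin, was rare and showed no common direction. It had 76, 50 and 56 counts across Sharpin-cpdm cultures 1 to 3 (5.60, 3.62 and 3.75 CPM), against 66, 92 and 36 counts across wild-type cultures 1 to 3 (4.84, 5.88 and 2.53 CPM). Sharpin-cpdm was higher in numbers 1 and 3 and lower in number 2. The log2 fold change with the block was -0.02 ± 0.25 (blocked edgeR adjusted p = 0.982), with a wider error than for the abundant members at these counts.

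Of the 10 metalloproteinase genes of the chromosome 9 cluster, 7 were tested and 3 fell, Mmp3, Mmp13 and Mmp27. Of all tested genes, 2.11% fell. Mmp27, which is no member of the 10, had 0.663, 0.580 and 4.49 CPM across Sharpin-cpdm cultures 1 to 3 and 3.01, 1.47 and 14.2 CPM across wild-type cultures 1 to 3. Its log2 fold change was -1.74 ± 0.21 (blocked edgeR adjusted p = 0.0155). Mmp8, the neutrophil collagenase and a neighbour of Mmp27, had -1.02 ± 0.20 (blocked edgeR adjusted p = 0.0617) and was lower within all 3 numbers. Mmp12, the macrophage elastase, and Mmp1b had positive values that did not pass, 0.43 ± 0.21 and 0.37 ± 0.37. Exons of Mmp12 and Mmp1b overlap on opposite strands, so their reads may not be separable. Mmp20 had 0 counts in all 6 libraries, and Mmp1a and Mmp7 had at most 2 in any.

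The gelatinases MMP2 and MMP9 cut denatured collagen and the type IV collagen of basement membranes, and their transcripts moved in opposite directions. Mmp2 (chromosome 8, 92827291 to 92853420, plus strand) stood at 849, 500.4 and 1431 CPM across Sharpin-cpdm cultures 1 to 3, against 1151, 724 and 2488 CPM across wild-type cultures 1 to 3. Libraries 3 were the highest and libraries 2 the lowest in both genotypes, and the ratio was 0.737, 0.691 and 0.575 within numbers 1 to 3. The log2 fold change was -0.60 ± 0.08 (blocked edgeR adjusted p = 0.0216), and -0.67 ± 0.53 without the block. Without pair 2 the adjusted p with the block was 0.0717.

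Mmp9 (chromosome 2, 164940780 to 164955850, plus strand) rose, on a level far below that of Mmp2. It had 78.0, 156 and 47.3 CPM across Sharpin-cpdm cultures 1 to 3 and 47.6, 93.6 and 33.3 CPM across wild-type cultures 1 to 3. Here libraries 2 were the highest and libraries 3 the lowest in both genotypes, the reverse of the order in Mmp2, and Sharpin-cpdm was 1.64, 1.67 and 1.42 times the wild-type level within numbers. The log2 fold change was 0.65 ± 0.07 (blocked edgeR adjusted p = 0.0106), and 0.69 ± 0.55 without the block. Without pair 2 the adjusted p was 0.0517. Macrophages and neutrophils are known sources of MMP9. The macrophage markers summed to 156, 419.5 and 260.4 CPM across Sharpin-cpdm cultures 1 to 3 and to 86.4, 499 and 211 CPM across wild-type cultures 1 to 3, and the neutrophil genes S100a8 and S100a9 were at most 0.145 CPM in Sharpin-cpdm and at most 0.639 CPM in wild type. The part of such cells in the level of Mmp9 was not tested.

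The ratio of Mmp2 to Mmp9 transcripts per kilobase of exon was 11.4, 3.36 and 31.8 in Sharpin-cpdm libraries 1 to 3 and 25.4, 8.12 and 78.4 in wild-type libraries 1 to 3. It was lower in Sharpin-cpdm within each number, and it ranged more widely between numbers than between genotypes.

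**Figure D2:**
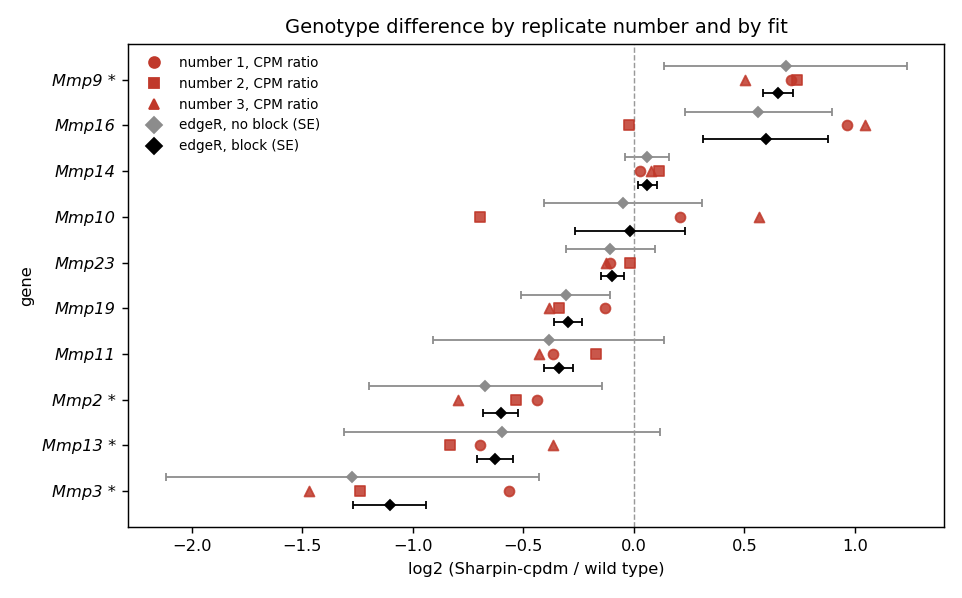
Log2 ratio of Sharpin-cpdm over wild type for each gene: red markers are CPM ratios within replicate numbers 1 to 3, grey diamonds edgeR's fit without and black diamonds with the replicate block, bars ± SE, and stars mark an adjusted p under 0.05 with the block. Mmp3, Mmp13, Mmp2 and Mmp9 carry stars, and the bars of the fit without the block are several times longer for most genes.

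The membrane-type enzymes MMP14 and MMP16 act on pericellular matrix and activate the MMP2 precursor, and MMP14 is also a collagenase of the fibroblast surface. Mmp14 (chromosome 14, 54431612 to 54445364, plus strand) had 1314.5, 1315.5 and 1389.7 CPM across Sharpin-cpdm cultures 1 to 3 and 1289.6, 1217 and 1315 CPM across wild-type cultures 1 to 3. All 6 values lay within a narrow band, with the highest 1.06 times the lowest in Sharpin-cpdm and 1.08 times in wild type, against 5.41 and 6.35 times for Mmp3. Its log2 fold change of 0.06 ± 0.04 with the block did not pass (blocked edgeR adjusted p = 0.542). Mmp16 (chromosome 4, 17852893 to 18119145, plus strand) was the rarest member, with 33, 33 and 39 counts across Sharpin-cpdm cultures 1 to 3 and 17, 38 and 18 counts across wild-type cultures 1 to 3. Libraries 1 and 3 of wild type were low and the other 4 alike. The log2 fold change of 0.60 ± 0.28 did not pass (blocked edgeR adjusted p = 0.351).

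Mmp11, Mmp19 and Mmp23 complete the list. MMP11, or stromelysin 3, is activated inside the cell by furin and is a known product of fibroblasts next to carcinomas. Mmp11 (chromosome 10, 75923222 to 75936496, minus strand) stood at 212, 86.2 and 250.2 CPM across Sharpin-cpdm cultures 1 to 3 and at 273, 97.1 and 337 CPM across wild-type cultures 1 to 3. It was lower in Sharpin-cpdm within each number, by the factors 0.776, 0.888 and 0.743. Its log2 fold change with the block, -0.34 ± 0.07, missed the threshold in edgeR's test (adjusted p 0.0578) and passed in limma-voom (adjusted p 0.0456) and DESeq2 (adjusted p 0.0302) with the same block, which called 2.82% and 2.54% of all genes. Mmp11 shares exonic sequence with Chchd10 on the opposite strand, and the kit did not keep strand.

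Mmp19 (chromosome 10, 128790910 to 128800824, plus strand), a secreted enzyme of basement membrane substrates, had 89.2, 73.3 and 109 CPM across Sharpin-cpdm cultures 1 to 3 and 97.6, 92.7 and 142 CPM across wild-type cultures 1 to 3. Its log2 fold change with the block was -0.30 ± 0.06 (blocked edgeR adjusted p = 0.0784), and without pair 1 the adjusted p was 0.0117. Its exons overlap those of Tmem198b and Gm47093 on the opposite strand. Mmp23 (chromosome 4, 155650655 to 155653384, minus strand), which encodes an unusual family member anchored by its amino-terminal end, had 82.4, 63.1 and 95.2 CPM across Sharpin-cpdm cultures 1 to 3 and 88.7, 63.9 and 104 CPM across wild-type cultures 1 to 3. The genotypes lay close together within every number, and the log2 fold change with the block was -0.10 ± 0.05 (blocked edgeR adjusted p = 0.400).

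Levels of different genes were compared as CPM per kilobase of merged GENCODE exons, a scale that understates genes with long alternative exons. In Sharpin-cpdm the order was Mmp3 at 363 ± 279, Mmp2 at 275 ± 139.6 and Mmp14 at 225 ± 7.24 (mean ± SD, n = 3), then Mmp11 at 65.8, Mmp23 at 34.3, Mmp13 at 32.5, Mmp9 at 26.5, Mmp19 at 25.6, Mmp10 at 2.51 and Mmp16 at 0.286. In wild type it was Mmp3 at 860.4 ± 861, Mmp2 at 431 ± 273 and Mmp14 at 214 ± 8.58, then Mmp11 at 84.8, Mmp13 at 48.4, Mmp23 at 36.5, Mmp19 at 31.3, Mmp9 at 16.4, Mmp10 at 2.56 and Mmp16 at 0.190. In both genotypes the ranges of the first 3 overlapped from one gene to the next, as did those of the fourth to eighth. The order of neighbours within these sets is therefore not beyond the spread. Genes further apart in a set could be separate: in wild type the lowest Mmp3 value, 291, was above the highest Mmp14 value, 221. Mmp14 stood apart from Mmp11, the eighth from Mmp10, and Mmp10 from Mmp16 in both.

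The total of the 10 genes ranked the libraries as Mmp3 did. It was 3289.7, 2447 and 4647 CPM across Sharpin-cpdm cultures 1 to 3, against 3944, 2863.5 and 7902 CPM across wild-type cultures 1 to 3. The total without Mmp3 had the same order, at 2755.7, 2224.3 and 3442.7 CPM in Sharpin-cpdm and 3153.5, 2338.6 and 4569.3 CPM in wild type. Per kilobase, Mmp3 made up 30.3%, 19.7% and 43.2% of the 10 in Sharpin-cpdm libraries 1 to 3 and 35.1%, 34.5% and 60.1% in wild-type libraries 1 to 3. The share of Mmp14 ran the other way, at 22.6%, 35.2% and 15.1% in Sharpin-cpdm and 17.3%, 24.2% and 7.16% in wild type, although its level hardly varied. Mmp9 took 2.26%, 7.05% and 0.863% in Sharpin-cpdm libraries 1 to 3 and 1.08%, 3.13% and 0.306% in wild-type libraries 1 to 3.

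**Figure D3:**
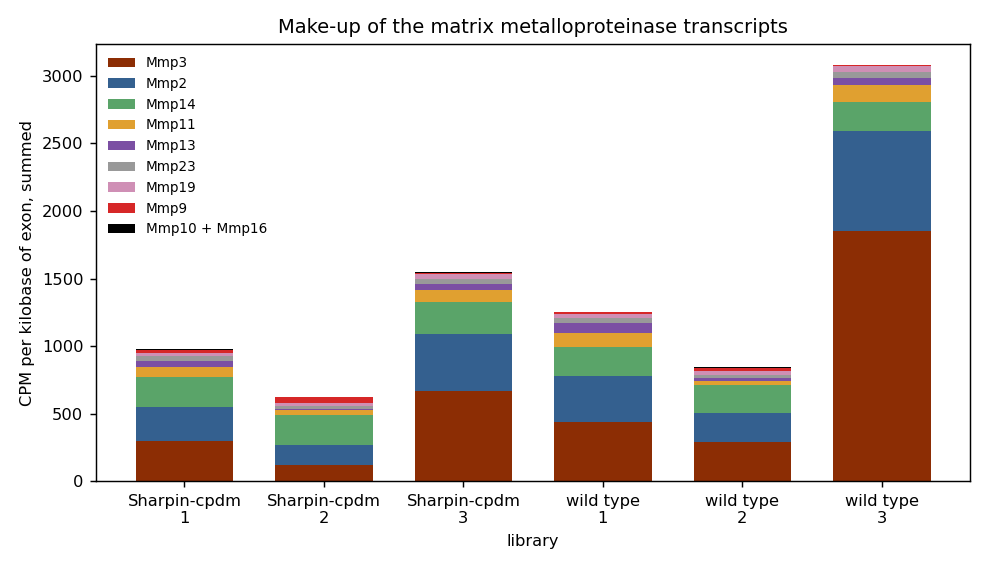
Stacked level of the 10 matrix metalloproteinase genes in CPM per kilobase of exon (linear axis from 0), 1 bar per library, Sharpin-cpdm libraries left of wild-type libraries. The Mmp3 segment varies most and makes up 60.1% of wild-type library 3, while the Mmp14 segment has nearly the same height in all 6 bars.

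Genes with the most similar pattern were sought by the root mean square difference of centred log2 CPM over the 6 libraries, a description that favours flat patterns and in rare genes counting noise. Nearest to Mmp2 were C1s, which encodes a complement protease (0.096), and Mitf (0.111). Nearest to Mmp3 were Fmo2 (0.108) and Masp1 (0.142), to Mmp9 Acsbg1 (0.107) and Mycl1 (0.124), and to Mmp13 Lrrc17 (0.233) and Omd (0.268). Within the family, Mmp13 was closest to Mmp11, at 0.433 the 19th nearest of all tested genes, and Mmp3 to Mmp2, at 0.478 the 84th. Mmp11 was nearest to Bmf and Trerf1, Mmp10 to 2610018G03Rik and Fbxo48, and Mmp16 to Pcyox1l and Edil3. The flat genes Mmp14, Mmp19 and Mmp23 had near neighbours at 0.034 or less, among them Zfp62 and Hadha, Gnptg and C1galt1, and 1700049G17Rik and Sp3.

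Of the 13 other metalloproteinase genes in the tables, 8 were tested and Mmp27 alone passed. Their median log2 fold change with the block was 0.07, against -0.20 for the 10 members. Both sets were chosen with earlier results of these data known, so the difference between these medians is a description and no test. Among the membrane-type genes, Mmp17 had 47.9, 73.6 and 57.6 CPM across Sharpin-cpdm cultures 1 to 3 and 39.4, 63.9 and 45.3 CPM across wild-type cultures 1 to 3. It was higher in Sharpin-cpdm within each number, with a log2 fold change of 0.26 ± 0.05 (blocked edgeR adjusted p = 0.0511). Mmp15 had -0.29 ± 0.09 (blocked edgeR adjusted p = 0.171), and Mmp25 had 0.20 ± 0.47. Outside the membrane-type genes, Mmp28 had -0.05 ± 0.14. Mmp21 and Mmp24 had at most 4 counts in any library and were not tested.

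Of the inhibitors, Reck fell and the TIMPs did not pass. Reck, a membrane-anchored inhibitor of several metalloproteinases, had 26.4, 24.6 and 37.8 CPM across Sharpin-cpdm cultures 1 to 3 and 35.8, 32.0 and 47.8 CPM across wild-type cultures 1 to 3, a log2 fold change of -0.40 ± 0.06 (blocked edgeR adjusted p = 0.0268). It was the single call among 6 tested inhibitors, where 2.51% of all tested genes were called, and their median was 0.02. Timp1 had -0.07 ± 0.06, Timp2 had -0.22 ± 0.06 and Timp3 had 0.37 ± 0.11, all short of the threshold (blocked edgeR adjusted p = 0.623, 0.137 and 0.144), and Timp4 had at most 3 counts in any library.

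TIMP2 links MMP14 to the MMP2 precursor, so these transcripts were set side by side per kilobase. Mmp14 was 2.18, 2.02 and 1.51 times Timp2 in Sharpin-cpdm libraries 1 to 3 and 1.75, 1.77 and 1.18 times in wild-type libraries 1 to 3, higher in Sharpin-cpdm within each number. Mmp2 was 2.49, 1.36 and 2.74 times Timp2 in Sharpin-cpdm libraries 1 to 3 and 2.76, 1.87 and 3.96 times in wild-type libraries 1 to 3, lower in Sharpin-cpdm within each number. Ratios of Mmp9 to Timp1 were 0.0308, 0.0301 and 0.0188 in Sharpin-cpdm libraries 1 to 3, against 0.0198, 0.0170 and 0.0119 in wild-type libraries 1 to 3. These ratios are descriptions without a test.

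Genes that act before and after the metalloproteinases were read as lists, beside the 2.51% of all tested genes that the blocked test called. Of 12 tested genes for convertases and plasminogen activation, which cut metalloproteinase precursors, 0 passed the blocked test. The log2 fold change was -0.34 ± 0.07 for Pcsk5, -0.40 ± 0.10 for Plau and 0.04 ± 0.04 for Furin. Of 12 docking, collagen and clearance receptors, Itgb3, an integrin subunit that can hold MMP2 at the cell surface, fell by 0.42 on the log2 scale, while Lrp1, which clears metalloproteinases, had -0.03 ± 0.05. Of 24 transcription factors with known sites in metalloproteinase promoters, Nfkb2 rose by 0.47 ± 0.08 and Cebpb changed by -0.33 ± 0.05, a fall, and 22 did not pass. The AP-1 genes Fos, Jun and Junb had 0.16 ± 0.09, 0.04 ± 0.05 and 0.10 ± 0.04. Fosl2, Fosb, Fosl1 and Jund lay below 0, at -0.15 ± 0.05, -0.16 ± 0.21, -0.10 ± 0.21 and -0.01 ± 0.05. None of these AP-1 genes passed the threshold. Within each number Fosl2 was lower in Sharpin-cpdm, whereas Fos and Junb were higher. Of all tested genes, 18.5% were lower and 22.7% higher within each number.

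Among 20 tested cytokines, growth factors and receptors that regulate metalloproteinase transcription, Il1r1 and Fgf7 fell, 18 did not pass, and 16 had a log2 fold change below 0. Of all 13442 tested genes, 6784 were below 0 with the block and 2.11% were called lower. Il1r1, the interleukin 1 receptor, had 129.99, 80.2 and 198 CPM across Sharpin-cpdm cultures 1 to 3 and 175, 94.6 and 270.1 CPM across wild-type cultures 1 to 3. Its log2 fold change was -0.39 ± 0.06 (blocked edgeR adjusted p = 0.0317), and that of Fgf7, a fibroblast growth factor for epithelium, was -0.35 ± 0.06 (blocked edgeR adjusted p = 0.0441). Il1b and Tnf, inducers of Mmp3 and Mmp13, were at most 0.220 CPM and at most 1.02 CPM in any library and were not tested.

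Of 22 tested matrix substrates, 4 fell and 0 rose, where 2.11% of all tested genes fell and 0.394% rose. Eln, elastin, changed by -0.68 ± 0.05, the collagen-binding proteoglycans Dcn and Lum by -0.90 ± 0.15 and -0.71 ± 0.07, and Nid2 of the basement membrane by -0.40 ± 0.04. Fn1, fibronectin, a substrate of MMP3, had 0.32 ± 0.07 (blocked edgeR adjusted p = 0.0707). The CPM ranges of the genotypes were apart for 2 substrates that were lower, Eln among them, and 2 that were higher, Fn1 among them. They were apart for 5.94% of all tested genes. The endothelial markers had a median of -0.78 in the same libraries, and their part in these values was not tested.

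**Figure D4:**
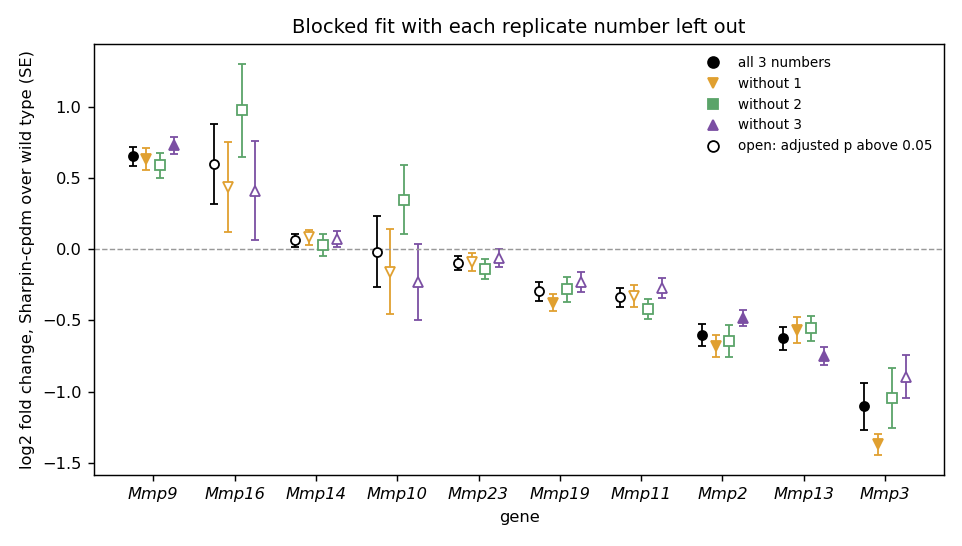
Log2 fold change of Sharpin-cpdm over wild type with the replicate block for each gene, over all 3 numbers (black circles) and without number 1, 2 or 3 (coloured), bars ± SE; filled markers have an adjusted p under 0.05. The sign of the 4 called genes is the same in all fits shown, as it is within each number. No marker is filled without number 2, and Mmp10 changes sign.

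The direction of the 4 called differences was the same within each number, so leaving out a pair could not reverse it. Their size and the calls depended on which pairs were used. Without pair 1, 5 of the 10 members passed the blocked test (Mmp19 in addition), without pair 2 there were 0, with 7 at an unadjusted p under 0.05, and without pair 3 there were 3 (Mmp2, Mmp9 and Mmp13). Over the same fits the log2 fold change of Mmp3 ranged between -1.37 and -0.90, that of Mmp2 between -0.68 and -0.48, that of Mmp13 between -0.75 and -0.56 and that of Mmp9 between 0.59 and 0.73. Without the block, single libraries decided the size: leaving out wild-type library 3 brought the log2 fold change of Mmp3 to -0.036 and that of Mmp2 to -0.037, leaving out Sharpin-cpdm library 2 brought that of Mmp9 to 0.063, and leaving out wild-type library 1 brought that of Mmp13 to -0.15.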

How the data were processed

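RNA from 6 cultures was sequenced after TruSeq RNA v2 library preparation, per the labels' protocols, an unstranded kit. Per the submitters' processing notes, the tools were HTSeq 0.5.4p3, TopHat2 2.0.10 and bcl2fastq 1.8.4 and the build mm10; roles, settings and annotation are not given in the sources used here. Raw counts by symbol were deposited by the authors, for 23337 genes besides 5 summary rows that held between 48.8% and 51.2% of each table and were left out here. Reads placed at several positions are thereby missing from genes with close copies.

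Tests were run with edgeR 4.0.16 in R 4.3.3 (filterByExpr, TMM, quasi-likelihood F-test of genotype, two-sided, Benjamini-Hochberg, threshold 0.05), and in DESeq2 1.42.0 and limma 3.58.1 as alternatives. CPM values use the plain total of gene rows. Each standard error is the absolute log2 fold change over the square root of F. Centred log2 CPM has a prior count of 2. The scripts were tested on simulated data.

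Members and lists were chosen with earlier results of these data known. Genes named are the members, the other metalloproteinases, the TIMPs, Reck and Sharpin, up to 4 called genes of each list (or up to 2 with the smallest p), and the 2 nearest patterns. Others named (Furin, Lrp1, the AP-1 genes, Il1b, Tnf, Fn1, Col1a1, S100a8, S100a9 and markers at 0) were chosen after their values were seen. The result of 1 marker list is not reported here.

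The numbers 1 to 3 were taken to pair the libraries because deviations from the group means correlated across genes within numbers. The correlations were 0.457, 0.809 and 0.737 within numbers and between -0.691 and 0.00677 otherwise. Deviations of a group cancel out for each gene, so positive values within numbers push the others to negative values on average. Genes are not independent replicates, and the pairing comes from the data and not the labels. The block took edgeR's biological coefficient of variation down to 0.0718, against 0.217 unblocked. No libraries of a group agreed within sampling noise (chi-square per degree of freedom at least 16.9). The labels do not say whether libraries shared a culture day, and p-values cover only the spread between these samples. Tools for coordinates and motifs were GENCODE M21 (GRCm38) and RefSeq.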

Additional observations from a re-analysis of the deposited data

How the results depend on the processing

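The number of genes called depended on the replicate block. Without it edgeR called 0 genes in every setting tried, including each library left out (0 genes and 0 members, with 143 to 485 genes at an unadjusted p under 0.05), while DESeq2 called 10 and limma-voom 0. With the replicate block edgeR called 337 genes and 4 members, 336 and 4 with RLE factors, 365 and 5 with no scaling factor, and 502 and 5 with no low-count filter, 116 higher and 386 lower against 53 and 284 with the filter. DESeq2 with the block called 341 genes and 5 members and limma-voom 379 and 5, Mmp11 being the fifth member each time. Leaving out a pair gave between 44 and 653 genes (653, 128 and 44 without pairs 1, 2 and 3) and between 0 and 5 members (5, 0 and 3). The numerically small difference of Mmp10 changed sign without the block in limma-voom (0.0016), with the block in DESeq2 (0.0083) and without pair 2 (0.35), and ranged between -0.33 and 0.23 with a library left out and no block; Mmp23 likewise ranged between -0.27 and 0.060. The cause was not tested. Mmp2, Mmp3, Mmp9 and Mmp13 kept their direction in all settings tried. The counts of Mmp10 and Mmp16 limit what could be detected for these genes.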

Other observations

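The macrophage elastase gene Mmp12 had its highest value in Sharpin-cpdm culture 3. Its level was 39.9, 62.3 and 165 CPM over Sharpin-cpdm cultures 1 to 3, beside 29.5, 72.6 and 79.5 CPM over wild-type cultures 1 to 3. The macrophage markers summed to 156, 420 and 260 CPM over Sharpin-cpdm cultures 1 to 3 and to 86.4, 499 and 211 CPM over wild-type cultures 1 to 3. That sum was highest in culture 2 of both genotypes. Cd68, a macrophage gene chosen after its values were seen, had 6.04, 13.0 and 14.3 CPM over Sharpin-cpdm cultures and 4.18, 17.4 and 11.7 CPM over wild-type cultures. The groups overlapped for both genes, the log2 fold change of Mmp12 was 0.43 ± 0.21 (blocked edgeR adjusted p = 0.368), and the part of macrophages in it was not tested.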
